A study of Mus musculus with 44 samples.

Results

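The genes described here encode the proteins of the cytosolic ribosome. They were chosen by symbol alone: Rpl or Rps followed by a number and at most 1 letter, Rplp0 to Rplp2, and Rpsa, with the Rps6k kinases left out. On the 2 array platforms together, 59 such genes had values in mouse striatum. The Affymetrix table held 33 of their probesets (27 genes) among 38870 non-control probesets with values, and the Illumina table held 67 of their probes (54 genes) among 14185. Another 67 probesets that the Affymetrix annotation gives to 1 ribosomal protein gene had no values, so that 100 were annotated in all. The rule itself uses no measured value.

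The striata came from naïve adult mice of the inbred strains C57BL/6J (B6) and DBA/2J (D2), on 44 arrays. The Affymetrix MOE430 2.0 arrays held 10 B6 mice and 10 D2 mice, with 5 females and 5 males of each strain. The Illumina MouseRef-8 arrays held 12 B6 males and 12 D2 males, which were other mice than those on the Affymetrix arrays. Both are inbred strains with no transgene or treatment. Striatal tissue was dissected from a coronal slice without separating its cells, so every value is a mean over its cell types. A lower share of a cell type and less RNA in each of its cells cannot be told apart in such samples. No 2 arrays were identical, in 190 Affymetrix and 276 Illumina pairs.

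Each ribosome joins a small subunit, which reads the mRNA, to a large subunit, which forms the peptide bond. The proteins named Rps belong to the small subunit and those named Rpl to the large one, with Rplp0, Rplp1 and Rplp2 forming the P stalk that recruits elongation factors. Most of their mRNAs are abundant in every cell and begin with a pyrimidine tract through which mTOR sets their translation together, and several serve as reference genes for quantitative PCR. Ribosomal protein genes also have many processed pseudogenes, so a probe can match more than 1 place in the genome.

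The array labelled B6 female 64 stood apart. At 148 probesets that separated the strains by over 1 log2 unit on the other 19 arrays, it lay at 0.512 of the way from D2 (0) to B6 (1), where the other B6 arrays lay at 0.987 to 1.01 and D2 arrays at -0.006 to 0.02. Values with and without it are given below. On the Illumina arrays the mean bead signal was 1223 to 1822 in B6 and 599.3 to 1849 in D2, where 4 dim arrays (3, 5, 6 and 12) held 599.3 to 985.3. RNA integrity overlapped between the strains: the 3′ minus 5′ difference of the Gapdh controls was -0.17 to 0.16 log2 units in B6 and -0.16 to -0.04 in D2. Medium spiny neuron markers, which define striatum, differed in 0 of 14 probesets and 1 of 8 Illumina probes by limma at an adjusted p below 0.01 (Drd2, higher in B6).

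Between the strains, 2 ribosomal protein genes (2 of 12 tested probesets, against 9.70% of all tested) differed on the Affymetrix arrays, in opposite directions, and 8 (9 of 64 tested probes, against 9.77% of all tested) differed on the Illumina arrays. Rpl14 was lower and Rps3 higher in B6 on the Affymetrix arrays. On the Illumina arrays Rpl29, Rps9, Rps3, Rps15a, Rps2 and Rplp0 were higher and Rpl38 and Rps15 lower in B6. However, Rps15 did not pass in 14 of 24 fits that left out 1 array. The passing Rplp0 probe and 1 of the 2 Rpl29 probes were tested only through B6, where they were high. A second Rplp0 probe, detected in both strains, did not pass. Rps3 was the 1 gene that differed on both arrays, higher in B6 at the tested probeset and at 1 of its 2 Illumina probes, while the other probe had -0.15 and did not pass. The other 10 tested probesets and 55 tested probes of the family did not pass.

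Affymetrix values were on the log2 scale of robust multichip average (RMA), and the 50% of probesets with the higher means were tested. Of the 33 ribosomal protein probesets, 12 (12 genes) passed this filter and 21 did not. With limma, 2 of the 12 differed at an adjusted p below 0.01, against 9.70% of all 19437 tested probesets. Of the 12, 1 passed as higher in B6, against 4.70% of all tested probesets, and 1 passed as lower in B6, against 5.00%. These 2 were also the ones whose B6 and D2 arrays did not overlap, which held for 3.21% of all. The median difference, B6 minus D2, was -0.082 over the 12 probesets and -0.025 over all. The median size of the difference, whatever its sign, was 0.104 over the 12 and 0.081 over all.

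Rpl14 encodes a protein of the large subunit. Its probeset read 6.17, 6.4 and 7.57 (lowest, median and highest log2 RMA of 10) in B6, against 7.94, 8.08 and 8.26 in D2. No B6 array reached the D2 range, and the highest B6 value was that of B6 female 64. The means were 6.47 ± 0.40 in B6 and 8.08 ± 0.09 in D2 (SD, n = 10 each), a difference of -1.61 ± 0.12 (SE), or 3.06-fold (limma, adjusted p = 2.80e-09). Without B6 female 64 the difference was -1.74 ± 0.05 (SE). It was -1.50 in females alone and -1.73 in males alone.

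Rps3 encodes a small-subunit protein at the entry of the mRNA channel that is also known in DNA repair. Its probeset read 7.30, 7.52 and 7.77 in B6 (lowest, median and highest log2 RMA of 10), against 6.3, 6.75 and 6.95 in D2. Every B6 array lay above every D2 array. The means were 7.53 ± 0.15 in B6 and 6.71 ± 0.20 in D2 (SD, n = 10 each), a difference of 0.81 ± 0.08 (SE), or 1.76-fold (limma, adjusted p = 6.27e-08). The difference was 0.84 in females alone and 0.78 in males alone. A second Rps3 probeset was under the filter, with 4.74 to 5.52 in B6 and 5.04 to 5.44 in D2, which overlapped.

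**Figure D1:**
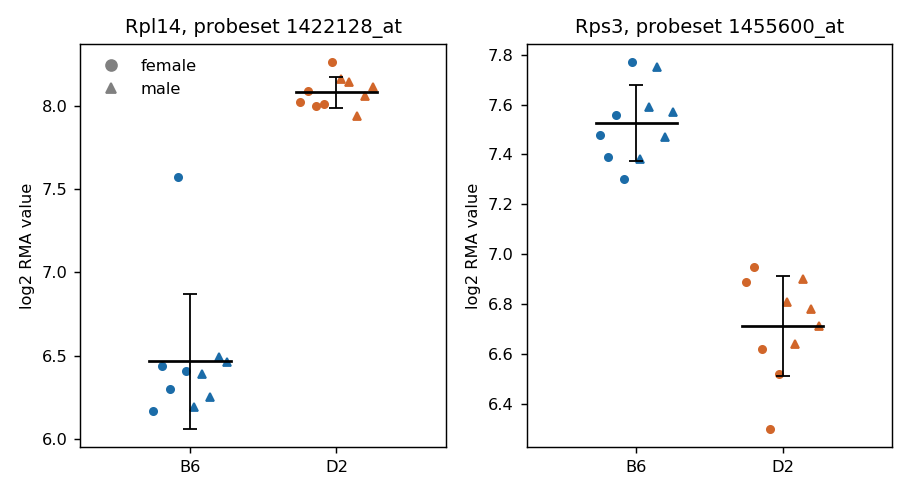
Log2 RMA values of Rpl14 and Rps3 on the 20 Affymetrix arrays, B6 left and D2 right (circles females, triangles males), with black lines for mean and SD. The B6 and D2 arrays do not overlap for either gene, and the B6 array at 7.57 for Rpl14 is B6 female 64.

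The other 10 tested probesets did not pass. The nearest were Rps27, a small-subunit protein, with means of 6.82 ± 0.12 in B6 and 7.07 ± 0.17 in D2 (SD, n = 10 each; limma, adjusted p = 0.0157), and Rpl12, a protein near the base of the P stalk, with 7.21 ± 0.10 in B6 and 7.05 ± 0.11 in D2 (limma, adjusted p = 0.0277). Without B6 female 64 the Rps27 difference of -0.24 became -0.27 and passed (limma, adjusted p = 0.00769). The rest, Rpl37, Rps25, Rpl22, Rpl8, Rps14, Rps24, Rpl13a and Rpl39, had differences between -0.12 and 0.09, with 95% intervals that all included 0. Without B6 female 64, intervals excluded 0 for 5 of these: Rpl37 had -0.15 (-0.27 to -0.04), Rps25 -0.14 (-0.25 to -0.02), Rpl8 -0.12 (-0.21 to -0.03), Rps14 -0.11 (-0.185 to -0.031) and Rpl39 0.105 (0.009 to 0.201), and none of the 5 passed. The names Rpl37 and Rps14 rest on probesets of the _x_at kind, whose design allows probes that match other transcripts. Probes with several alignments had been masked before these values were made.

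The 21 untested probesets gave low values, between 2.93 and 6.3 in B6 and between 2.95 and 6.25 in D2. They include Rpl3l, the paralog used in muscle, with 3.49 to 4.09 in B6 and 3.76 to 4.04 in D2. They also include Rpl39l, a paralog used in testis, with 3.82 to 4.11 in B6 and 3.77 to 4.13 in D2. The X-linked Rps4x read 5.25 to 5.76 in B6 and 5.35 to 5.74 in D2. The 2 probesets of Rps18, a reference gene, read 5.45 to 5.78 and 4.11 to 4.5 in B6, against 5.28 to 6.02 and 4.14 to 4.67 in D2. All of these ranges overlapped between the strains.

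By limma 0 of the 12 probesets were called between females and males, against 0.0257% of all probesets. At an unadjusted p below 0.05 there were 0 of the 12, against 729 of all 19437. Female minus male differences of the 12 ran from -0.08 for Rps3 to 0.11 for Rpl14. In the limma interaction test of strain and sex, 0 of the 12 were called, against 0% of all probesets. At an unadjusted p below 0.05 there were 0 of the 12, against 347 of all 19437. With 5 arrays in each group the intervals were wide, at -0.29 to 0.74 for Rpl14. The interaction with the lowest p was that of Rpl22, a large-subunit protein with a paralog of its own, at -0.23 log2 units (unadjusted p = 0.0599 from limma).

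The Illumina probes are 50 bases long, and their sequences were read from the probe identifiers in the deposited table. Those of the 8 genes that differed are shown because a gene was often read by a pair of probes that gave unlike differences. Probes are given whole or by their first 30 bases, in lower case, and capitals mark bases found in the gene's own promoter window of RefSeq (GRCm38.p6).
Rpl29 ILMN_2730005: gggttaccgtgagtgttggccttacggcat
Rpl29 ILMN_2857570: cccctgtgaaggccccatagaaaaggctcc
Rps9 ILMN_1214918: ggattaattaatacttggctgaactggagg
Rps9 ILMN_2643092: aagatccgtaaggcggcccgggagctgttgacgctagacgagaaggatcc
Rps3 ILMN_2594103: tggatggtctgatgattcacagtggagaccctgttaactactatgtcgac
Rps3 ILMN_2637639: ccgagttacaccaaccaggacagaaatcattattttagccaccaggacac
Rps15a ILMN_2717621: ccttttcattcaacctctcctatgtgctct
Rps2 ILMN_2946616: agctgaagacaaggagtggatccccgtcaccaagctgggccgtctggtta
Rplp0 ILMN_1249815: ctccggtctggatttatttagtttgttcac
Rplp0 ILMN_2744356: cttgacttggtgccatagctagtctgggac
Rpl38 ILMN_2594971: TTAACCGTCCGGAAGCGGAAGCCTCGTTCT
Rpl38 ILMN_3135931: acccccgggtttggcagtgaaggatctgaa
Rps15 ILMN_2671517: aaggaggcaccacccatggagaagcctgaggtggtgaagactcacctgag
These genes lie on chromosomes 5 (Rplp0), 7 (Rps3, Rps9 and Rps15a), 9 (Rpl29), 10 (Rps15), 11 (Rpl38) and 17 (Rps2).

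Illumina values were on the scale of a variance-stabilizing transformation (VST), which follows log2 for bright probes and is flatter for dim ones. A probe was tested when 1 strain or both had it detected on all 12 arrays, which kept 64 of the 67 ribosomal protein probes (53 genes). Of these 64, 58 were detected on every array of both strains, and the other 6 passed through 1 strain alone. With limma, 9 of the 64 differed at an adjusted p below 0.01, against 9.77% of all 11072 tested probes. Of the 64, 7 passed as higher in B6, against 5.36% of all tested probes, and 2 passed as lower in B6, against 4.41%. Of the 58 probes detected on every array of both strains, 7 passed (5 higher and 2 lower in B6), against 8.21% of all such probes. The other 2 calls, Rpl29 ILMN_2730005 and Rplp0 ILMN_1249815, were probes tested only through B6, where they were high. The study left Illumina probes over SNPs out of its own analyses, but the probes were not checked for SNPs here. A SNP under a probe and a difference in RNA were therefore not told apart. The B6 and D2 arrays did not overlap for 2 of the 64 (Rpl29 ILMN_2730005 and Rplp0 ILMN_1249815), against 2.88% of all. The median difference, B6 minus D2, was -0.029 VST units over the 64 and -0.016 over all, and the median size was 0.144 over the 64 and 0.095 over all.

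**Figure D2:**
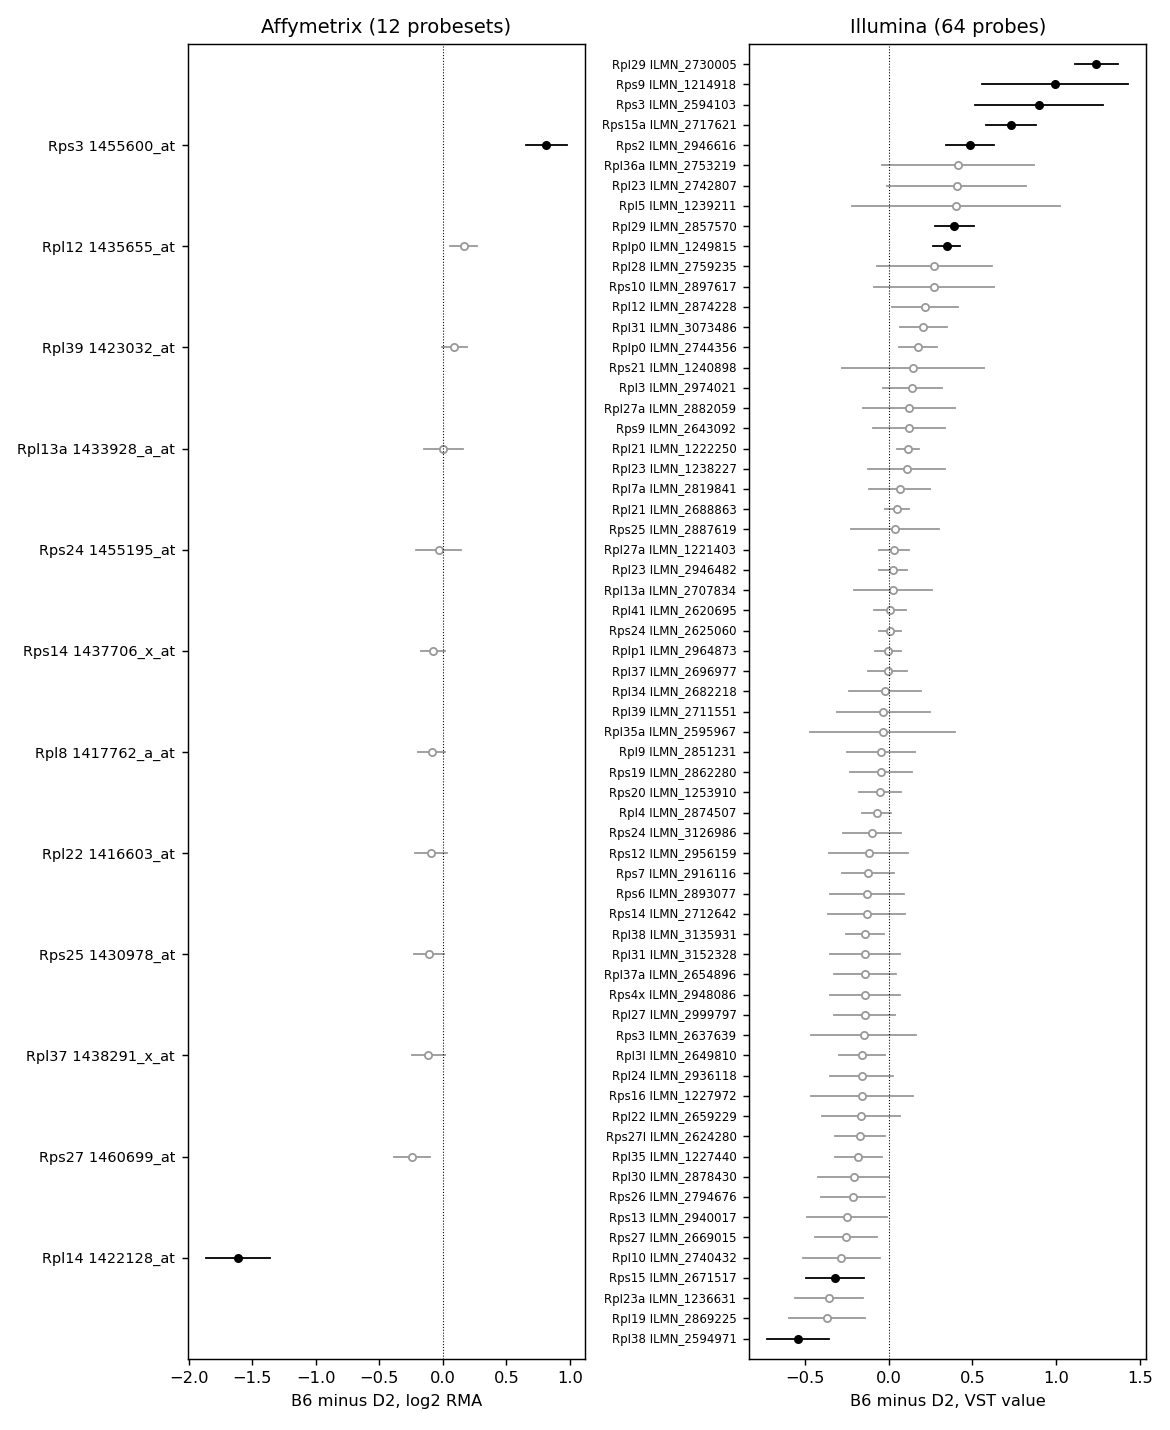
Difference between B6 and D2 for every tested ribosomal protein probeset (Affymetrix, log2 RMA) and probe (Illumina, VST), sorted, with 95% intervals from limma. Filled black points passed an adjusted p of 0.01 (2 of 12 and 9 of 64), and open grey points did not.

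Rpl29, a small protein at the surface of the large subunit, was the gene read by 2 probes that both passed. ILMN_2730005 read 9.998, 10.28 and 10.70 VST units in B6 (lowest, median and highest of 12), against 8.95, 9.04 and 9.24 in D2. Every B6 array lay above every D2 array. It was detected on 12 of 12 B6 arrays and 10 of 12 D2 arrays, and so was tested only through B6, the strain where it was high. The difference was 1.24 ± 0.06 (SE; limma, adjusted p = 1.94e-14). ILMN_2857570 read 12.10, 12.49 and 12.64 in B6, against 11.84, 12.09 and 12.24 in D2, and 1 B6 array fell among the D2 arrays. Its difference was 0.39 ± 0.06 (SE; limma, adjusted p = 7.47e-06). This second probe shared 20 or more bases with a promoter window of 1 other gene, as did 4 of the 67 probes with windows of other genes.

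Rps3 was read by a pair of probes that gave unlike differences. ILMN_2594103 read 12.54, 13.21 and 13.58 VST units in B6 (lowest, median and highest of 12), against 10.85, 12.43 and 12.97 in D2. The strains overlapped, and the 4 dim D2 arrays were the lowest of all, at 10.85 to 12.04. Its difference was 0.90 ± 0.19 (SE; limma, adjusted p = 9.70e-04), and 0.53 ± 0.11 without the 4 dim arrays (limma, adjusted p = 0.00126). ILMN_2637639 read 12.22, 12.66 and 13.21 in B6, against 11.81, 12.87 and 13.54 in D2, and the strains overlapped throughout. Its difference was -0.15, with a 95% interval of -0.46 to 0.16 (limma, adjusted p = 0.528). Without the 4 dim arrays it was -0.34, with an interval of -0.605 to -0.075 (limma, adjusted p = 0.0809), opposite in sign to the first probe.

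Rps9, a small-subunit protein, was likewise read by a pair of probes. ILMN_1214918 read 13.94, 14.38 and 14.51 VST units in B6 (lowest, median and highest of 12), against 11.66, 13.55 and 14.12 in D2. The 4 dim D2 arrays were below every other D2 array, at 11.66 to 13.27 against 13.43 to 14.12. Its difference was 0.99 ± 0.21 (SE; limma, adjusted p = 0.00131), and 0.56 ± 0.09 without the 4 dim arrays (limma, adjusted p = 1.18e-04). ILMN_2643092 read 11.86, 12.50 and 12.81 in B6, against 12.02, 12.27 and 12.88 in D2, which overlapped. Its difference was 0.12, with a 95% interval of -0.10 to 0.34 (limma, adjusted p = 0.452).

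Rps15a and Rps2, both small-subunit proteins, were read by 1 probe each. Rps15a read 10.48, 10.96 and 11.25 VST units in B6 (lowest, median and highest of 12), against 10.01, 10.18 and 10.496 in D2. The lowest B6 array fell just under the highest D2 array, and no other arrays overlapped. The difference was 0.73 ± 0.07 (SE; limma, adjusted p = 2.06e-08). Rps2 read 14.12, 14.41 and 14.78 in B6, against 13.61, 13.91 and 14.14 in D2, with an overlap of the same kind. Its difference was 0.49 ± 0.07 (SE; limma, adjusted p = 7.47e-06). Both differences were as large without the 4 dim D2 arrays, at 0.75 for Rps15a and 0.55 for Rps2.

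**Figure D3:**
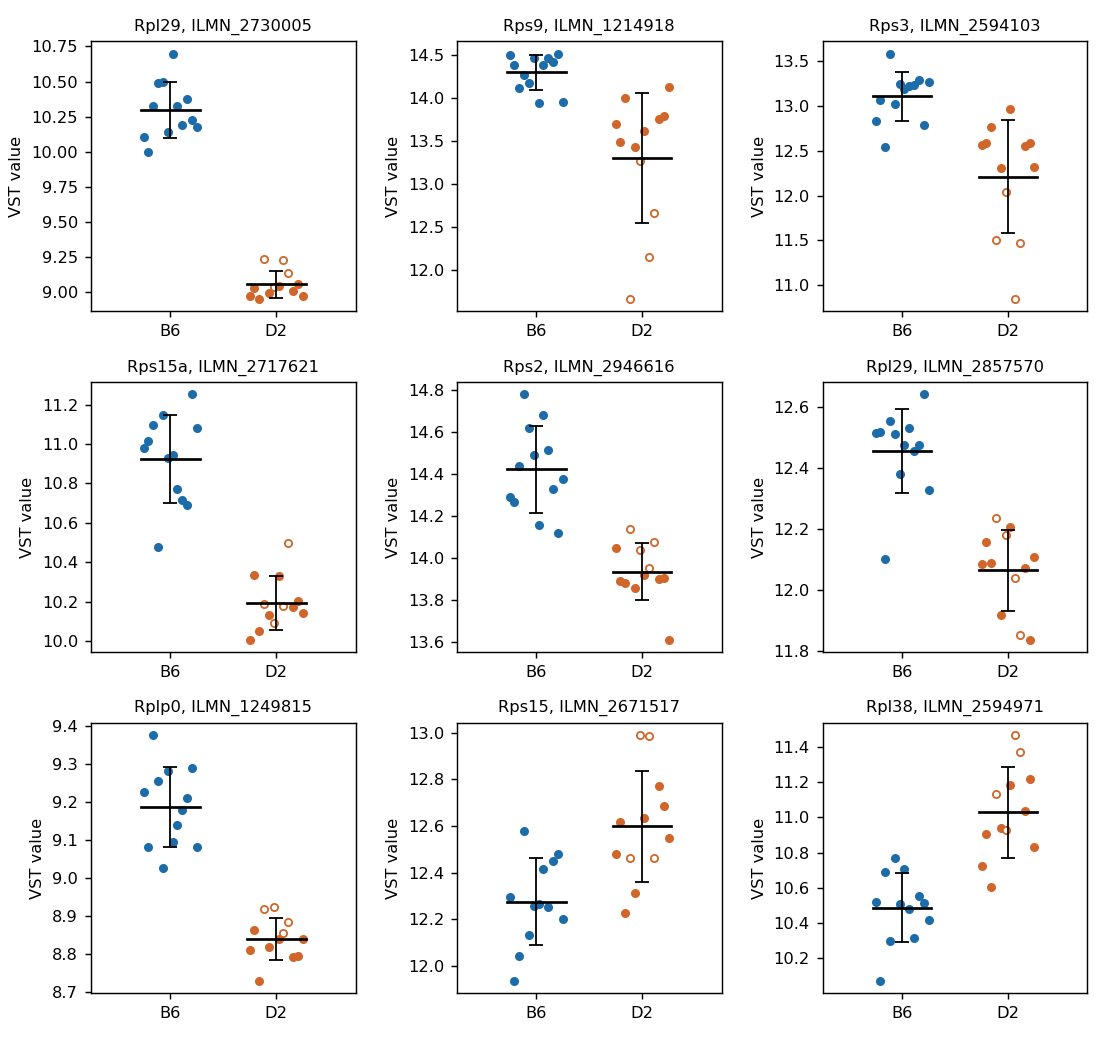
VST values on the 24 Illumina arrays of the 9 ribosomal protein probes that differed, B6 left and D2 right, with black lines for mean and SD and open circles for the 4 dim D2 arrays. The strains do not overlap for Rpl29 ILMN_2730005 and Rplp0, and the dim arrays are the lowest for Rps9 and Rps3.

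Rplp0 forms the base of the P stalk and is a reference gene in quantitative PCR. ILMN_1249815 read 9.03, 9.19 and 9.37 VST units in B6 (lowest, median and highest of 12), against 8.73, 8.84 and 8.92 in D2. Every B6 array lay above every D2 array, and the probe was detected on all 12 B6 arrays and on none of the 12 D2 arrays. D2 therefore has only a bound, and B6 was at least 1.33-fold higher on quantile-normalized log2 signals, set against the lowest detected signal of each D2 array or the probe's own signal where that was higher. The adjusted p was 1.40e-07 by limma, for a probe that was tested only through B6. The second probe, ILMN_2744356, was detected on every array and read 9.51, 9.77 and 9.92 in B6, against 9.32, 9.63 and 9.79 in D2, which overlapped. Its difference was 0.17 ± 0.05 (SE; limma, adjusted p = 0.0263). Of the other stalk proteins, Rplp1 had a difference of -0.004 (95% interval -0.08 to 0.07) with values near the top of the scale, and Rplp2 was not analysed here.

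Rpl38 is a large-subunit protein whose loss in mice changes the translation of Hox mRNAs. ILMN_2594971 read 10.07, 10.51 and 10.77 VST units in B6 (lowest, median and highest of 12), against 10.61, 10.99 and 11.47 in D2. The strains overlapped between the highest B6 arrays and the lowest D2 arrays. Its difference was -0.54 ± 0.09 (SE; limma, adjusted p = 6.07e-05). All 50 of its bases matched the Rpl38 promoter window, from 28 bases before to 21 bases after the annotated first base of the transcript. The second probe, ILMN_3135931, did not match the window and read 15.16, 15.27 and 15.50 in B6, against 15.26, 15.43 and 15.71 in D2. Its difference was -0.14 ± 0.06 (SE; limma, adjusted p = 0.0792). Among the 67 probes only Rpl38 ILMN_2594971 and the Rpl7a probe shared 20 or more bases with the gene's own window.

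Rps15, a protein of the head of the small subunit, read 11.94, 12.26 and 12.58 VST units in B6 (lowest, median and highest of 12), against 12.23, 12.58 and 12.99 in D2. The strains overlapped over much of their range. The difference was -0.32 ± 0.08 (SE; limma, adjusted p = 0.00788), and -0.26 without the 4 dim D2 arrays, where it did not pass (limma, adjusted p = 0.0302). It also missed in 14 of 24 fits that left out 1 array, with array weights and with a trended and robust eBayes, and was -0.012 on log2 signals centred on array medians.

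In all, 10 genes had several tested Illumina probes, of which 5 had a probe that passed and 1, Rpl29, had every probe pass. The probes of 3 of these genes (Rpl31, Rps24 and Rps3) gave differences of opposite sign. The gap between the probes of 1 gene was 1.05 VST units for Rps3, 0.87 for Rps9, 0.85 for Rpl29, 0.40 for Rpl38 and 0.07 for Rpl21. Probes of 1 gene can read different transcripts or copies, and their differences are not replicates. Rpl23 had 3 tested probes, and 1 of these, ILMN_2946482, shared 20 or more bases with 3 promoter windows of other genes. It read 15.91 to 16.10 in B6 and 15.75 to 16.10 in D2, near the top of the scale.

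**Figure D4:**
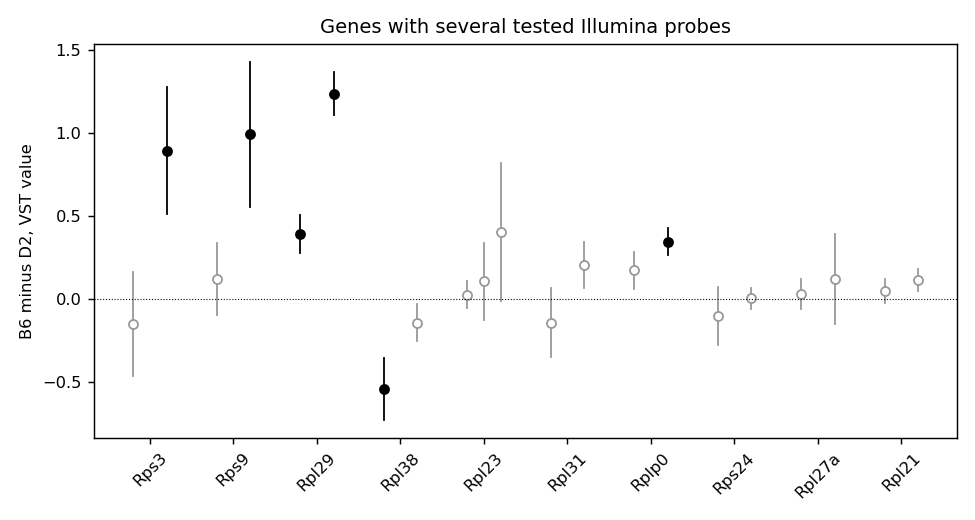
Difference between B6 and D2 (VST, with 95% intervals) for each tested Illumina probe of the 10 ribosomal protein genes with several probes, ordered by the gap between probes. Filled points passed an adjusted p of 0.01, and the widest gap, 1.05, is that of Rps3.

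The other 3 Illumina probes were not tested. Rpl14 ILMN_1227142 was detected on 7 of 12 D2 arrays and on 0 of 12 B6 arrays. It read 8.72 to 8.96 VST units in B6 and 8.80 to 9.21 in D2, which overlapped. On quantile-normalized log2 signals the means were 8.07 in B6 and 8.30 in D2. Both means include arrays where the probe was not detected, so no bound on the fold is given. Rpl4 ILMN_2631003 was detected on 7 B6 and 5 D2 arrays, and Rpl23 ILMN_2685675 on 9 B6 and 10 D2 arrays. Other probes of Rpl4 and Rpl23 were tested.

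Of the other members used as reference genes in quantitative PCR, Rpl13a had a difference of 0.002 on the Affymetrix array (95% interval -0.15 to 0.16) and 0.02 on the Illumina array (-0.21 to 0.26). Rpl4 had -0.07 (-0.16 to 0.02). Rps13 had -0.25 (-0.49 to -0.01; limma, adjusted p = 0.143), and -0.094 without the 4 dim D2 arrays (limma, adjusted p = 0.672). Rpl19 read 11.53, 11.66 and 11.88 VST units in B6 (lowest, median and highest of 12), against 11.59, 11.98 and 12.96 in D2, a difference of -0.37 (-0.59 to -0.14; limma, adjusted p = 0.022). The 4 dim D2 arrays held the highest Rpl19 values, 12.36 to 12.96, and without them the difference was -0.14 (limma, adjusted p = 0.106). Rpl32 and Rps29 were not analysed here.

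The X-linked members did not pass where they were tested, which on the Affymetrix array was Rpl39 alone. On the Illumina array Rps4x had a difference of -0.14 (95% interval -0.35 to 0.07), and Rpl10, which completes the large subunit, -0.28 (-0.51 to -0.05; limma, adjusted p = 0.0836). Rpl36a had 0.42 (-0.04 to 0.87), with 0.057 without the 4 dim D2 arrays, and Rpl39, which lines the exit tunnel, 0.09 (-0.006 to 0.19) on the Affymetrix and -0.03 (-0.31 to 0.24) on the Illumina array. Of the paralogs, Rpl3l had -0.16 (-0.30 to -0.02; limma, adjusted p = 0.108) on the Illumina array. Rps27l, which p53 induces, had -0.17 there (-0.32 to -0.02; limma, adjusted p = 0.102) and was detected on all 12 arrays of each strain. Without the 4 dim D2 arrays Rps4x had -0.015, Rpl3l -0.033 and Rpl39 -0.215.

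Some of the family stood apart between the dim D2 arrays and the other 8. Of the 64 tested probes, 8 (12.5%) were lower on all 4 dim arrays than on every other D2 array, against 735 of all 11072 tested probes (6.6%), and 2 (3.12%) were higher, against 1442 (13.0%). Rpl5, which carries the 5S rRNA and binds Mdm2, averaged 12.67 on the 4 dim arrays and 14.34 on the other 8, a difference of -1.66 VST units. Rpl23 ILMN_2742807 differed by -1.33, Rps9 ILMN_1214918 by -1.30, Rps21 by -1.14 and Rps3 ILMN_2594103 by -1.11. Rpl19 and Rpl22 were higher on the dim arrays, by 0.69 and 0.66. Without these 4 arrays the difference between B6 and D2 changed sign for 15 of the 64 probes, none of which had passed. Rpl5 had 0.40 with them and -0.15 without, Rpl23 ILMN_2742807 0.405 and -0.038, Rpl28 0.27 and -0.04, Rps21 0.14 and -0.24, and Rpl22 -0.16 and 0.06. The mean over the 64 probes was 12.60 to 12.83 in B6 and 12.42 to 12.89 in D2, which overlapped.

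Within a strain the members did not form 1 block. After subtraction of strain means, the median correlation between 2 member probes was 0.139 over 2016 Illumina pairs on 24 arrays, from -0.889 to 0.879. It was 0.275 over 66 Affymetrix pairs on 20 arrays. These are descriptions, since the probes share arrays and their brightness.

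Both arrays tested 10 of the genes, and the arrays held different mice. For 6 of the 10 every probe gave the same sign on both (Rpl12, Rpl13a, Rpl22, Rpl37, Rps14 and Rps27), for 2 the Illumina probes gave both signs (Rps3 and Rps24), and for 2 the signs were opposite (Rpl39 and Rps25). Rps27 had -0.24 log2 units on the Affymetrix and -0.26 VST units on the Illumina array (limma, adjusted p = 0.0157 and 0.0534). Rpl12 had 0.16 and 0.22 (limma, adjusted p = 0.0277 and 0.119). Without the 4 dim D2 arrays 4 of the 10 genes had the same sign throughout (Rpl12, Rps14, Rps24 and Rps27). The Illumina difference was then 0.052 for Rpl12 and -0.002 for Rps14, and it had changed sign for Rpl13a, Rpl22 and Rpl37. Rpl14 could not be set side by side in this way, since its Illumina probe was not tested.

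**Figure D5:**
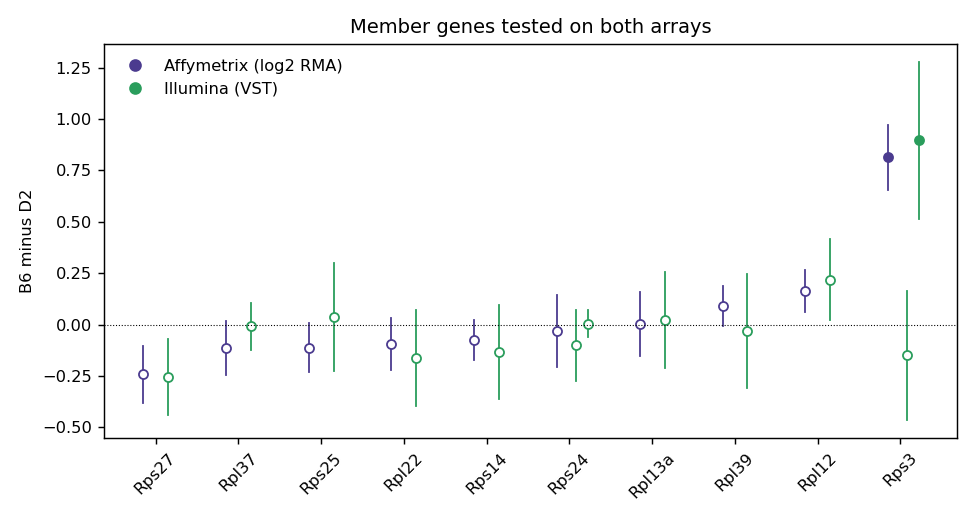
Difference between B6 and D2 with 95% intervals for the 10 ribosomal protein genes tested on both platforms (purple Affymetrix, log2 RMA; green Illumina, VST). Filled points passed an adjusted p of 0.01, which on both platforms held for Rps3 alone.

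Probesets that the annotation gives to a ribosomal protein gene together with other symbols, mostly pseudogenes, were not assigned to any gene. Of 29 such probesets with values, 17 were tested and 4 passed (23.5%, against 9.70% of all tested probesets). Of the 4, 3 were higher and 1 lower in B6. Differences of the 17 ran from -0.71 to 1.09, with a median of -0.034.

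The sequence around the start sites was searched for pyrimidine tracts, as a description with no test. RefSeq promoter windows (GRCm38.p6) were found for 49 of the 59 genes. Over all 73 windows of 61 ribosomal protein symbols, 56.2% held a C followed by at least 4 pyrimidines on the sense strand within 10 bases of the start, against 30.7% of all 32851 windows. Within 2 bases of the start the shares were 31.5% and 9.0%. The 30 bases around the start are shown for 5 of the genes that differed and had such a tract, which is in capitals.
Rpl14, chr9:120571507-120571536, plus strand: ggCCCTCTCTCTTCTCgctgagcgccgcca
Rps15a, chr7:118116128-118116157, minus strand: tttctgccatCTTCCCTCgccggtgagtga
Rps9, chr7:3704031-3704060, plus strand: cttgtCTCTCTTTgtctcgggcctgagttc
Rps2, chr17:24720053-24720082, plus strand: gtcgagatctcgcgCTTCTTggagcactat
Rpl38, chr11:114668570-114668599, plus strand: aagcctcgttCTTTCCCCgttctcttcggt
The windows of Rps3, Rplp0 and Rps15 had no such tract within 10 bases of the start, so the genes that differed include windows with and without it. Rpl29, which also differed, was not among the genes read singly in this way.

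Other genes of translation were read from lists of known function. Of all tested features, 9.70% of Affymetrix probesets and 9.77% of Illumina probes passed. Among mitochondrial ribosomal proteins, which are made for another ribosome, 11 of 88 Affymetrix probesets (4 higher and 7 lower in B6) and 13 of 92 Illumina probes (9 higher and 4 lower) passed, with medians of -0.021 and -0.011. The largest were Mrpl35, with means of 8.16 in B6 and 6.41 in D2 on the Affymetrix array (limma, adjusted p = 1.27e-13), and Mrpl48, whose Illumina probe averaged 11.07 in B6 and 9.72 in D2 (limma, adjusted p = 3.14e-10). Of initiation factors, 3 of 39 probesets and 2 of 40 probes passed. Eif4e, which binds the mRNA cap, was higher in B6 on both arrays, by 0.42 log2 units (limma, adjusted p = 3.70e-06) and 0.70 VST units (limma, adjusted p = 3.20e-08). Of elongation and release factors, 0 of 13 and 0 of 18 passed.

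In the mTOR pathway, 2 of 21 probesets (9.5%) and 1 of 12 probes (8.3%) passed, against 9.70% and 9.77% of all tested. Both probesets were of Deptor and the probe was of Tsc2, so neither gene passed on both arrays. Deptor, an inhibitor of mTOR, averaged 7.65 in B6 and 6.96 in D2 on the Affymetrix array (limma, adjusted p = 1.30e-05). Tsc2, which restrains mTOR complex 1, had an Illumina probe with means of 12.73 in B6 and 12.01 in D2 (limma, adjusted p = 3.36e-10). Of ribosome assembly genes, 7 of 46 probesets and 1 of 32 probes passed, and Polr1a, the large subunit of RNA polymerase I, was higher in B6 on both arrays, by 0.58 log2 units (limma, adjusted p = 2.98e-08) and 0.16 VST units (limma, adjusted p = 0.00469). Of ribosomal genes whose symbols the rule does not take, 0 of 4 probesets and 1 of 7 probes passed. That probe was of Rps3a1, a small-subunit protein, with 11.67 ± 0.43 in B6 and 10.40 ± 0.70 in D2 (SD, n = 12 each; limma, adjusted p = 1.35e-04).

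Some markers of other cell types differed between the strains, where 9.70% of all tested probesets and 9.77% of all tested probes did. Of microglial markers, 4 of 10 probesets and 5 of 8 probes passed, all higher in B6, and their mean level was 8.52 to 8.94 log2 units in B6 and 8.34 to 8.56 in D2, and 9.83 to 10.025 VST units in B6 and 9.47 to 9.67 in D2. Of oligodendrocyte markers, 2 of 16 probesets and 9 of 14 probes passed, all higher in B6, with mean levels of 10.86 to 11.54 log2 units in B6 and 10.33 to 11.29 in D2, and 11.37 to 11.85 VST units in B6 and 10.92 to 11.38 in D2. Of astrocyte markers, 1 of 15 probesets (lower in B6) and 3 of 10 probes (1 higher and 2 lower in B6) passed, all of them of Slc1a2, with mean levels of 9.32 to 9.63 log2 units in B6 and 9.48 to 9.83 in D2, and 10.69 to 10.905 VST units in B6 and 10.84 to 11.085 in D2. No defining marker was at 0, since arrays give a level for every probe. Their part in the differences of the ribosomal protein genes was not tested.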

How the data were processed

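Total RNA from the striata was measured on Affymetrix MOE430 2.0 and Illumina MouseRef-8 arrays. The Affymetrix values are the authors' log2 RMA values, made from perfect-match probes after probes over SNPs between the strains or with several alignments had been masked. The Illumina values are the authors' VST values, deposited on a log2-like scale after normalization between arrays in lumi, and probes over SNPs were neither checked nor removed here. Bead signal intensity and detection p-values, deposited from GenomeStudio without normalization, were used for filters and alternatives. MAS5 5.0 calls were not used. No column of another series was present.

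The ribosomal protein genes, the other gene lists and the rules were chosen with earlier results of these data known. Genes were taken from the platform annotation, and probes with several symbols were not assigned. Tested were the 50% of Affymetrix probesets with the higher means, and the Illumina probes whose detection p was below 0.05 on all arrays of 1 strain or of both. The difference B6 minus D2 was estimated in limma 3.58.1 under R 4.3.3 (lmFit, then eBayes), in a model that for Affymetrix also held sex. The robust alternative used statmod 1.5.0. P-values were adjusted by Benjamini-Hochberg over every tested feature. Differences were called at an adjusted p under 0.01. The fit was tested on simulated data. The number of arrays limits the precision.

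Named are members that passed, reference genes, P stalk and X-linked members, some paralogs, and up to 3 passing genes of other lists. Lists also covered markers of blood vessels, choroid plexus, blood and proliferating cells. Of these, 1 of 10, 0 of 6, 0 of 0 and 0 of 1 Affymetrix probesets passed, and 0 of 3, 0 of 3, 1 of 2 and 0 of 0 Illumina probes. Illumina probe sequences were decoded from their nuIDs, whose check digit held for all 14185 probes. Replicate numbers of the 2 strains were not taken as pairs. Alternatives covered filters, normalization, array weights, moderation, threshold, a replicate block and the leaving out of arrays.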

Additional observations from a re-analysis of the deposited data

Results flagged for a closer look

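Of 5 B6 females, 1 stood far from the others in the Rpl14 probeset: B6 female 64 read 7.57 log2 units, where the median of the 5 B6 females was 6.41, and this is the array that lay between the strains at other probesets. In the Rpl22 probeset, B6 male 67 read 6.72, where the median of the 5 B6 males was 7.11. In the Rps24 probeset, D2 male 80 read 6.37, where the highest of the 5 D2 males read 6.71. These 3 arrays, each far from the other 4 of its group, came from 48 groups of 5 arrays, and chance marks about 1 in 20 such groups. The untested Illumina probe of Rpl14 was detected on 7 of 12 D2 arrays and on 0 of 12 B6 arrays.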

How the results depend on the processing

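The 11 results for probes that passed kept their direction in all 342 values under alternatives, and 19 of these values no longer passed. Of the 19, 18 were of Rps15, including 14 of 24 fits that left out 1 array, and it also missed without the 4 dimmest D2 arrays (-0.258), with array weights (-0.266), with a trended and robust eBayes (-0.322) and on log2 signals centred on array medians (-0.012). The other was Rpl38 ILMN_2594971 on median-centred log2 signals (-0.323). That centring moved the median of all Illumina probes to 0.183, against -0.016, and the member median to 0.176, and 8 of 8 passing members were then higher in B6 (7 of 9 in the main setting; all probes 85.4% and 54.9%). At an adjusted p below 0.05, 4 Affymetrix and 14 Illumina member probes passed, a level for which the share of all probes is not given here. With the replicate block, 9 Illumina members passed, the same 9, and the median was -0.029. Numbers did not pair the arrays, since 3 of 12 same-numbered pairs correlated above 0.1 and 0 of 12 B6 arrays correlated best with its own number. Among all probes the block left 789 calls, against 1082. No other alternative moved a count of member calls by over 1.5 times. With quantile normalization added, Rpl12 joined the Affymetrix calls, 2 of 3 of which were then higher in B6.

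Leaving out 1 array gave 2 to 3 Affymetrix calls with medians of -0.106 to -0.066, and 8 to 10 Illumina calls with medians of -0.052 to 0.004. Differences that had not passed changed sign, 15 of 64 Illumina probes without the 4 dimmest D2 arrays. The following are of the reference, stalk and X-linked genes and the named paralogs. On median-centred log2 signals these were Rpl39 (0.234), Rpl4 (0.192), Rplp1 (0.046), Rps13 (0.045), Rps27l (0.107) and Rps4x (0.12). Without the 4 dimmest D2 arrays they were Rpl13a (-0.111) and Rplp1 (0.033), and with array weights the Rpl13a probe (-0.085), the Rpl13a probeset (-0.051) and Rplp1 (0.019). In males alone the Rpl13a probeset had -0.022. With 1 array left out, Rpl13a ran from -0.050 to 0.035 on the Affymetrix and -0.052 to 0.058 on the Illumina array, Rpl39 ILMN_2711551 from -0.149 to 0.023, and Rplp1 from -0.016 to 0.007. Unfiltered tables added Rps6 (0.277) on the Affymetrix array, and Rpl14 (-0.146) and Rpl21 (0.115) on the Illumina array. The cause was not tested.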
